A study of Mus musculus with 3 samples.

Results

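The Ly49 receptors were followed through 7 genes, Klra1, Klra3, Klra4, Klra6, Klra7, Klra8 and Klra9, chosen by symbol from the 32285 genes of the count matrices. Their RNA was read in natural killer (NK) cells and CD8 T cells of mouse blood. The study profiled mononuclear blood cells of C57BL/6 mice one cell at a time, in 3 libraries. The young library came from young mice and the aged library from aged mice, both given PBS for 1 month. The aged+AA library came from aged mice given AA for 1 month, and the series title names ascorbic acid. The labels do not say how many mice were pooled in a library, nor give ages in numbers, and the series title calls the treated mice middle-aged. With 1 library per group no difference has a replicate check and no test was made. Each interval below is thus a 95% interval that covers counting error only. Except for shares of cells, the intervals take each counted RNA molecule as independent, though 1 cell can hold several. Spread between cells is then not covered.

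Ly49 receptors are lectin-like receptors that mouse NK cells use to read class I MHC molecules on other cells. Inhibitory members carry a tyrosine motif in the cytoplasmic tail, the ITIM, which recruits phosphatases such as SHP-1 (Ptpn6). Activating members lack this motif and signal through the adaptor DAP12 (Tyrobp). Each NK cell turns on its own subset of the family, and some memory-type CD8 T cells are known to carry Ly49 receptors too. In the older protein names, Klra1 encodes Ly49A, Klra3 Ly49C, Klra4 Ly49D, Klra6 Ly49F, Klra7 Ly49G, Klra8 Ly49H and Klra9 Ly49I. Ly49D and Ly49H are the activating receptors, and Ly49H is known for recognising a protein of mouse cytomegalovirus.

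The start of the coding sequence shows the split between the classes, and it is the reason for showing these stretches. Below are the first 14 codons of each member from the GENCODE transcripts on GRCm38, with codon 8, the centre of the tail motif, in capitals. TAT and TAC encode tyrosine, and TTC encodes phenylalanine.
Klra1: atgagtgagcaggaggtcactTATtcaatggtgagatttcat
Klra3: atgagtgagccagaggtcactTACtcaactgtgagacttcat
Klra6: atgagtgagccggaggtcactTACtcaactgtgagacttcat
Klra7: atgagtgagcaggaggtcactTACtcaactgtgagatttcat
Klra9: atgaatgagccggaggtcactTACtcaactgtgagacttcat
Klra4: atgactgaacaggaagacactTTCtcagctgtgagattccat
Klra8: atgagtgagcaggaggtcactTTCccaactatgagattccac
The tyrosine codon was present in the 5 inhibitory members and in neither Klra4 nor Klra8.

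All 7 genes lie on the minus strand of chromosome 6 within the same gene cluster. In GRCm38 their spans are Klra6 at chr6:130013033-130026954, Klra4 at chr6:130043731-130067271, Klra8 at chr6:130115226-130129898, Klra9 at chr6:130178675-130193112, Klra7 at chr6:130218605-130233322, Klra3 at chr6:130323289-130337574 and Klra1 at chr6:130363917-130386874. The coding sequences are close copies. Klra3 and Klra9 share 95.86% of aligned coding bases, and Klra4 and Klra8 share 78.63%. The libraries read the 3′ end of transcripts, so the last 500 bases of each GENCODE transcript were searched for stretches of 90 bases found in another transcript of the family. Such stretches made up 8.52% of those of Klra3, 10.2% of those of Klra7 and 14.1% of those of Klra9, and 0% for the other 4 members. Klra3 shared them with Klra9 and Klra10, and Klra7 with the pseudogene Klra13-ps, so the split of reads between Klra3 and Klra9 is uncertain.

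Depth was counted in unique molecular identifiers (UMIs), each of which marks a captured RNA molecule, and came to 64496639 in the young library, 94944551 in the aged one and 80424480 in the aged+AA one. After cell calling and filters, 8762, 9765 and 11106 cells were kept, with median depths of 4453, 3610 and 4054 UMIs. Kept cells of different libraries shared 21 to 29 barcodes per pair of libraries, against 12.6 to 15.96 if barcodes were drawn at random. Cells were sorted by marker UMIs, without clustering. The NK gate (Ncr1 or Klrb1c with cytotoxic genes, no CD3, Cd8b1 or Cd4) held 300 young, 232 aged and 164 aged+AA cells, with median depths of 3038, 3210 and 3368 UMIs. The CD8 T gate (Cd8b1 with CD3, no Cd4 or Ncr1) held 1773, 757 and 2061 cells, with median depths of 5990, 5904 and 6636 UMIs. Marker genes not used by the gates matched the NK label. The 8 NK genes summed to between 7605 and 8363 CPM (UMIs per 1000000 UMIs of the gate) in the NK gate. In the CD8 T gate they summed to between 911 and 1426 CPM. A list of 8 T-cell genes summed to between 3031 and 3235 CPM in the CD8 T gate and to between 751 and 893 CPM in the NK gate. In CD4 T cells these genes summed to between 3753 and 4456 CPM, so they do not tell CD8 from CD4 T cells.

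Ly49 RNA was concentrated in NK cells. In the young library the NK gate held 72.8% of all Ly49 UMIs of kept cells and the CD8 T gate 3.75%. The aged library had 51.1% of them in NK and 11.8% in CD8 T cells. For the aged+AA library the shares were 39.6% and 23.4%. Most of the rest lay in cells that met no gate. Such shares depend on how many cells a gate held as well as on the level in them. The NK gate held 300, 232 and 164 cells and the CD8 T gate 1773, 757 and 2061. Within the NK gate, 288 of 300 young cells (96.0%) held at least 1 Ly49 UMI, as did 193 of 232 aged cells (83.2%) and 153 of 164 aged+AA cells (93.3%). Because a share of cells depends on depth, each cell was also thinned to 1000 UMIs, which left out 4 to 6 NK cells per library. The thinned shares were 89.5% (85.4 to 92.7%) in young, 71.5% (65.2 to 77.3%) in aged and 84.8% (78.3 to 90.02%) in aged+AA NK cells. The aged interval overlapped neither of the others. B cells, which should lack Ly49, gave thinned shares of 0.374%, 0.404% and 0.226% (0.996%, 1.11% and 0.858% before thinning), at median depths of 3415, 3113 and 3556 UMIs.

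Aged NK cells held less Ly49 RNA in total than young NK cells, and 4 of the 7 members were lower by more than 1.5 times while Klra7 was nearly level. The summed level of the 7 members was 3465 CPM (3351 to 3581) in young and 2011 CPM (1918 to 2107) in aged NK cells, a ratio of 0.580 (0.548 to 0.615). Of all 7037 genes with at least 20 UMIs over both gates, 11.8% were lower by at least 1.5 times and 14.2% higher, and the median gene had a ratio of 1.011. Among the members 4 of 7 were past that fold downward and 1 of 7 upward. The members' median ratio was 0.639.

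Of the activating pair, Klra4 was at 1099 CPM in young, 426 CPM in aged and 872 CPM in aged+AA NK cells. The aged library was thus the lowest, and the 3 intervals did not overlap. Aged over young, the Klra4 ratio was 0.388 (0.344 to 0.437), the lowest of the members. Fewer aged cells showed it and each held fewer copies: the thinned share with a Klra4 UMI was 48.3% in young, 28.1% in aged and 44.3% in aged+AA cells, and positive cells before thinning held 6.41, 4.33 and 5.85 Klra4 UMIs on average. Klra8 was at 887 CPM in young, 528 CPM in aged and 595 CPM in aged+AA cells. Its aged-over-young ratio was 0.596 (0.531 to 0.667). The aged and aged+AA intervals of Klra8 overlapped, and both lay under the young interval.

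Among the inhibitory members, Klra9 was at 712 CPM in young, 359 CPM in aged and 615 CPM in aged+AA NK cells. Its ratio was 0.504 (0.440 to 0.576) for aged over young. Klra3, the close copy of Klra9, was at 260, 166 and 217 CPM, with a ratio of 0.639 (0.518 to 0.786). These genes were both lowest in the aged library. Klra7 was at 409 CPM in young, 382 CPM in aged and 444 CPM in aged+AA cells, a range within which the intervals overlapped. Klra1 followed another order, with 90.6 CPM in young, 131 CPM in aged and 237 CPM in aged+AA cells. The ratio of Klra1 was 1.44 (1.09 to 1.92) for aged over young. Klra6 was rare, with 7 UMIs in young, 16 in aged and 14 in aged+AA NK cells, and its ratio of 2.66 had an interval from 1.04 to 7.65.

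In UMIs, which count molecules without regard to transcript length, the order of the members in young NK cells was Klra4, Klra8, Klra9, Klra7, Klra3, Klra1 and Klra6, and no neighbouring intervals overlapped. No correction was made for how well each transcript is captured. In the aged library Klra8 led, the intervals of Klra4, Klra7 and Klra9 overlapped, and so did those of Klra3 and Klra1. In the aged+AA library Klra4 led again, Klra9 and Klra8 overlapped, and so did Klra1 and Klra3.

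**Figure D1:**
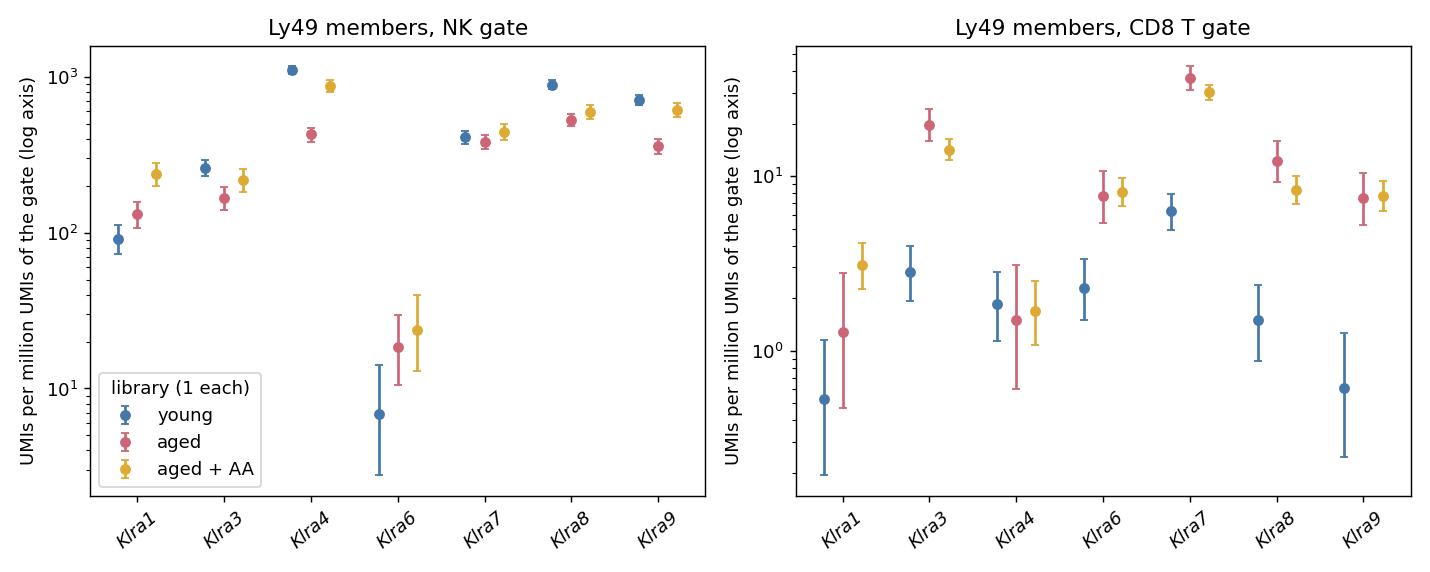
Level of each Ly49 gene in CPM (log axis), in the NK gate (left) and the CD8 T gate (right), 1 point per library with its 95% Poisson interval. In NK cells Klra4, Klra8, Klra9 and Klra3 were lowest in the aged library, and in CD8 T cells all members except Klra4 were lowest in the young library.

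The aged+AA library was compared with the aged library to ask how AA treatment bore on the aged profile. In NK cells the summed Ly49 level was 3003 CPM (2865 to 3146) against 2011 CPM, a ratio of 1.49 (1.40 to 1.60). All 7 members had a ratio above 1, and 3 of 7 were higher by at least 1.5 times, against 9.12% of all 6448 genes with enough UMIs. The fold downward was passed by 0 of 7 members and by 13.1% of all genes. Klra4 had the highest ratio, 2.05 (1.79 to 2.34), followed by Klra1 at 1.81 (1.41 to 2.34) and Klra9 at 1.71 (1.47 to 2.00). Klra3 was at 1.30 (1.02 to 1.67). For Klra7, Klra8 and Klra6 the interval of the ratio held 1, and Klra8 was at 0.985 where the gate allowed 1 stray CD3 UMI. Both comparisons use the same aged library, so a low value there lowers the first ratio and raises the second.

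Other genes of the Ly49 pathway and of NK maturation did not all follow the members. Tyrobp, the adaptor of the activating receptors, was at 2645, 2539 and 2800 CPM in young, aged and aged+AA NK cells. Hcst, which encodes the adaptor DAP10, was at 739, 617 and 591 CPM. Of 10 signalling genes, 1 was higher in aged than in young NK cells by at least 1.5 times and 0 lower, no more than the 14.2% of all genes past this fold, and their median ratio was 1.20. That gene was Ptpn11, at 1.55 with an interval that held 1 (0.886 to 2.75). Ptpn6, which encodes SHP-1, had a ratio of 1.47 (1.05 to 2.08). Among 8 genes of class I molecules and their peptide loading, which are the ligands' side, 1 was past the fold upward, the peptide transporter gene Tap1 at 1.62 (1.17 to 2.25). H2-D1 and H2-K1, the classical class I genes, were at 0.842 and 0.952.

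Of the 15 other NK receptor genes, 14 were measured well enough in aged over young NK cells and had a median ratio of 0.867. Only Klrb1f was past the fold downward, at 0.591 (0.459 to 0.757), and 0 were past it upward. Klrk1, which encodes the activating receptor NKG2D, was at 0.686 (0.610 to 0.770), and Klrc1, the inhibitory NKG2A, at 0.700 (0.579 to 0.844). Ncr1 and Klrd1, at 0.995 and 1.02, were nearly level. Of 11 NK maturation genes, 5 were past the fold upward and 1 downward, beside 14.2% and 11.8% of all genes. Zeb2, a transcription factor of late NK maturation, was at 1.91 (1.62 to 2.25), and Itgam, which encodes the maturation marker CD11b, at 1.65 (1.36 to 1.99). Eomes, a transcription factor of NK identity, was at 0.613 (0.499 to 0.751). In aged+AA over aged NK cells 1 of 10 maturation genes was past the fold upward and 2 downward, near the 9.12% and 13.1% of all genes, with Itgam at 0.666 (0.534 to 0.827) and Eomes at 1.26 (0.984 to 1.61).

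**Figure D2:**
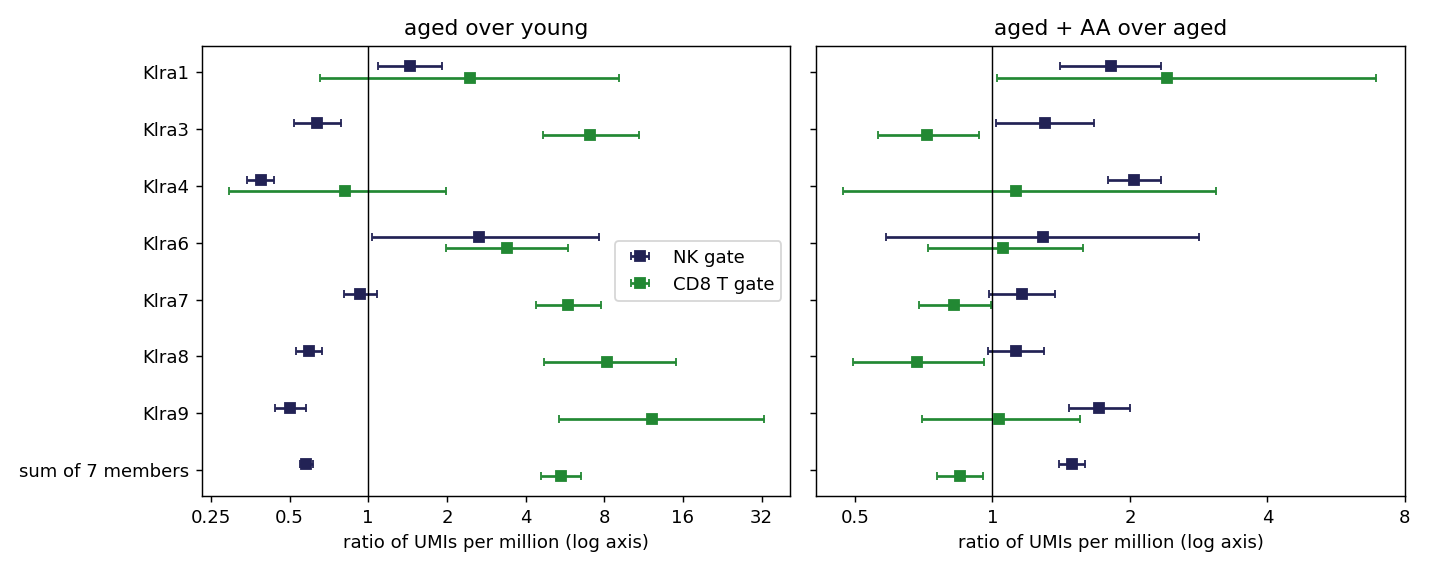
Ratio of CPM (log axis) of each member and of their sum, for aged over young (left) and aged + AA over aged (right), in the NK gate and the CD8 T gate, with 95% counting intervals and a line at 1. The sum lies at 0.580 in NK and 5.45 in CD8 T cells on the left, and at 1.49 and 0.849 on the right.

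Red cell RNA differed between the NK gates. The summed level of 8 erythroid genes was 25008 CPM in young, 77075 CPM in aged and 66640 CPM in aged+AA NK cells, with all 8 detected. Leaving out cells with over 1% haemoglobin UMIs gave summed Ly49 ratios of 0.571 (aged against young) and 1.58 (aged+AA against aged). The 8 myeloid genes summed to 3609, 3419 and 3694 CPM in the NK gates, with Csf1r, Chil3 and Fn1 at 0 in the young and aged+AA libraries and none at 0 in the aged one. Fcer1g, which NK cells express, gave most of this sum. The other myeloid genes did not share 1 order. NK cells with Ly49 held 4, 32 and 2 UMIs of Ifitm3 and 1, 16 and 3 of Retnlg, both highest in the aged library. Cst3 was lowest there, at 171.3, 151.1 and 179.5 CPM in the same cells. Monocytes made up 0.536%, 11.5% and 0.900% of kept cells in the young, aged and aged+AA libraries, and neutrophils 0.148%, 6.72% and 1.15%. The part of this cell make-up and of myeloid RNA in the Ly49 ratios was not tested. RNA from outside the cells, estimated from haemoglobin, would give 2.08 to 2.64 CPM of Ly49 in the NK gates.

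The make-up of the Ly49 UMIs differed between NK and CD8 T cells in every library. The activating genes Klra4 and Klra8 together gave 57.3% (55.7 to 59.0%) of the Ly49 UMIs of young NK cells, 47.5% of aged and 48.8% of aged+AA NK cells. In the CD8 T gate they gave 20.99% (15.3 to 27.7%), 15.8% and 13.7%. The young CD8 T share rested on 38 UMIs of the pair, while young B cells, the background, held 62. Klra7 was the leading member in CD8 T cells, with 39.8%, 42.3% and 41.2% of the Ly49 UMIs, against 11.8%, 19.0% and 14.8% in NK cells. Klra6, the rarest member in NK cells at 0.199%, 0.912% and 0.790%, gave 14.4%, 8.91% and 11.1% in CD8 T cells. Klra4, which led in young NK cells at 31.7%, gave 11.6%, 1.73% and 2.30% in CD8 T cells.

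**Figure D3:**
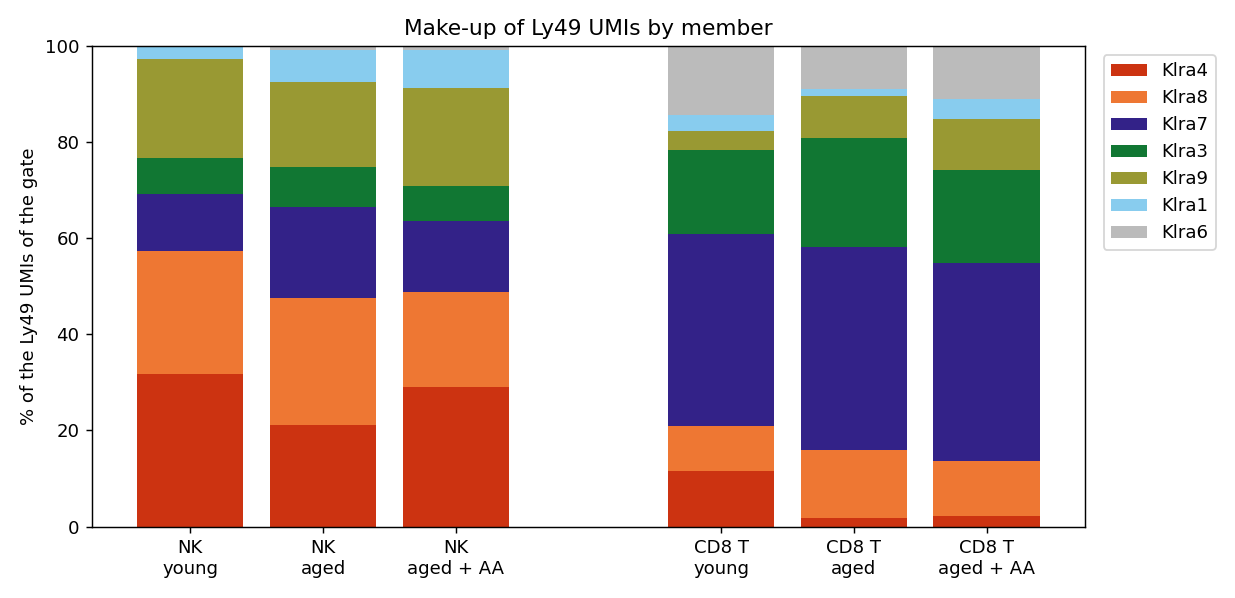
Share of the Ly49 UMIs of a gate that came from each member, in percent, for the NK and CD8 T gates of the 3 libraries. The activating genes Klra4 and Klra8 at the base of the bars gave 47.5% to 57.3% in NK cells and 13.7% to 20.99% in CD8 T cells, where Klra7 was the largest part.

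Single NK cells usually showed more than 1 member. Before thinning, NK cells held UMIs of 2.72 members on average in young, 2.16 in aged and 2.68 in aged+AA blood, and no cell showed all 7. After thinning the averages were 1.82, 1.35 and 1.82. Among thinned NK cells with any member, 67.7% (61.7 to 73.3%), 60.1% (52.2 to 67.7%) and 65.7% (57.0 to 73.7%) showed 2 or more.

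Some pairs of members met in the same NK cell more often than the product of their shares, and others less often, in all 3 libraries. Klra4 and Klra8 were seen together in 68 thinned young cells against 59.9 from the product, in 33 aged cells against 20.5 and in 35 aged+AA cells against 25.7. Klra4 with Klra7 gave 47, 28 and 35 cells against 37.7, 16.8 and 24.4. Klra7 with Klra9 went the other way, with 23, 12 and 13 cells against 28.9, 16.3 and 18.5. Klra4 with Klra9 was also under the product, with 50, 14 and 18 cells against 52.7, 17.4 and 23.5. These counts were not tested and come from cells of 1 library each.

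Across 21 pairs of gate and library (7 gates, each with at least 30 cells per library), Klra4 and Klra8 were the most alike of the members, with a Pearson r of 0.985 on log2(CPM + 10). Klra4 and Klra6 were the least alike, at 0.436. The points share libraries and depth, and the NK gates set them apart from the other gates, so these are descriptions. For the pair most alike, the 250 bases before the transcription start are shown from RefSeq (GRCm38.p6, minus strand), at chr6:130067272-130067521 for Klra4 and chr6:130129899-130130148 for Klra8, the more upstream of the RefSeq starts of Klra8. Capitals mark the motif TATAAA on either strand.
Klra4: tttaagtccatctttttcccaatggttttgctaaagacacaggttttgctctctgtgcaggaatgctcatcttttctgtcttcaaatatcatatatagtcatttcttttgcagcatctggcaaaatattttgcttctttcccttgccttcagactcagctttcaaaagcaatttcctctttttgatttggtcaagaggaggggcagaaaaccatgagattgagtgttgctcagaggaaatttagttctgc
Klra8: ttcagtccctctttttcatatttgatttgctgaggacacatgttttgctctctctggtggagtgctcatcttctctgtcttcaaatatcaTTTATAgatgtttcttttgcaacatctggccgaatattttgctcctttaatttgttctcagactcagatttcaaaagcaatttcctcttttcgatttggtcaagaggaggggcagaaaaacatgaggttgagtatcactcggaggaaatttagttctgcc
The 2 stretches matched at 212 of 249 aligned bases (85.1%). Other pairs matched more closely, such as Klra3 with Klra9 at 224 of 230 bases (97.39%) and Klra3 with Klra6 at 138 of 149 (92.62%). The levels of these pairs had an r of 0.9583 and 0.5634. The motif was found in the Klra8 stretch and not in that of Klra4, and 12.4% of 32851 RefSeq stretches of this length held it.

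The genes outside the family whose levels were most like the summed Ly49 level over the same 21 points, among 12621 genes, were Klre1 (r = 0.993), Ncald (0.989), Klrc2 (0.981), Serpinb6b (0.980), Serpinb9 (0.979), Sytl3 (0.975), Peak1 (0.974) and Il18rap (0.974). Klre1 and Klrc2 encode other lectin-like NK receptors, and Serpinb9 encodes an inhibitor of granzyme B.

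CD8 T cells of both aged libraries held more Ly49 RNA than those of the young library, though far less than NK cells. The summed level was 15.9 CPM (13.7 to 18.4) in young, 86.6 CPM (78.4 to 95.5) in aged and 73.5 CPM (69.1 to 78.1) in aged+AA CD8 T cells. This gave a ratio of 5.45 (4.57 to 6.54) between aged and young. Of 6 members with at least 20 UMIs, 5 were higher by at least 1.5 times and 0 lower, against 25.7% higher and 6.37% lower among 10324 genes, whose median ratio was 1.20. With clusters in place of the marker gate the ratio of the sum was 3.11 (2.78 to 3.49).

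Klra7, the leading member, was at 6.32 CPM in young, 36.7 CPM in aged and 30.2 CPM in aged+AA CD8 T cells. The young value lay below both aged intervals, and the aged-over-young ratio was 5.80 (4.38 to 7.75). Klra3 was at 2.81, 19.7 and 14.2 CPM, with a ratio of 7.02 (4.65 to 10.9). Klra8, the activating receptor gene, was at 1.49, 12.2 and 8.37 CPM, with a ratio of 8.19 (4.70 to 15.02). Its young value lay under the B-cell background, with 17 UMIs among 11399020 against 23 among 9655898 in young B cells. The Klra8 ratio thus rests on a young value that is not read as expression. In NK cells the same gene had a ratio of 0.596. Klra9 was at 0.614, 7.50 and 7.74 CPM and rested on 7 UMIs in the young library, with a ratio of 12.2 (5.35 to 32.6). Klra6 was at 2.28, 7.72 and 8.16 CPM, with a ratio of 3.38 (1.99 to 5.84). In clusters in place of the gate the Klra6 ratio was 1.43 (0.998 to 2.04).

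Of the genes of the pathway in the same comparison, 6 of 9 signalling genes were higher by at least 1.5 times (25.7% of all genes) and 0 lower, with a median ratio of 1.58. Tyrobp, which the activating members need at the surface, was at 2.02 CPM in young, 22.9 CPM in aged and 6.75 CPM in aged+AA CD8 T cells. Myeloid cells also express Tyrobp. In the CD8 T gate the 7 myeloid genes measured in each comparison had a median ratio of 13.44 for aged over young. For aged+AA over aged their median ratio was 0.1215. The part of myeloid RNA in the Tyrobp levels was not tested. Of 8 other NK receptor genes measured, 6 were higher past the fold and 0 lower.

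Klra4 was the exception among the members measured: it was at 1.84, 1.501 and 1.69 CPM. The interval of its aged-over-young ratio, 0.292 to 1.99, held 1. Young B cells, which should lack Ly49, held 39 Klra4 UMIs among 9655898, against 21 among 11399020 in young CD8 T cells. The young Klra4 value lay under this background and is not read as expression. Klra1 had 6 UMIs in young, 6 in aged and 44 in aged+AA CD8 T cells and was too rare for the first comparison.

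The share of CD8 T cells with any Ly49 UMI was 5.13% (91 of 1773) in young, 19.4% (147 of 757) in aged and 19.9% (411 of 2061) in aged+AA cells. After thinning to 1000 UMIs it was 1.69% (1.14 to 2.41%), 6.61% (4.94 to 8.61%) and 5.44% (4.50 to 6.51%). The mean over all possible draws of the thinning was 1.20%, 6.94% and 5.50%. The young share was unstable: it was 0.936% with doublets kept, 0.833% with at most 5% mitochondrial UMIs and 2.71% in clusters in place of the gate, each outside its interval. All these shares were above the B-cell shares given above, and the young interval overlapped neither aged interval. B cells held a summed Ly49 level of 8.60, 5.33 and 2.51 CPM. RNA from outside the cells would give 1.79, 1.25 and 1.54 CPM of Ly49 in the young, aged and aged+AA CD8 T gates. Erythroid RNA in the CD8 T gates was 22239, 65945 and 24569 CPM and myeloid RNA 89.7, 219 and 119 CPM, in each case with all 8 genes detected. Without cells over 1% haemoglobin UMIs the aged-over-young ratio of summed Ly49 was 5.75.

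Between the aged+AA and aged libraries the CD8 T levels lay close together. The summed ratio was 0.849 (0.756 to 0.954), beside a median gene at 0.934. The ratio was higher by at least 1.5 times for 1 of 7 members (Klra1, 2.41, 1.02 to 6.91) and lower for 0, against 5.76% and 11% of 10668 genes. Klra3 at 0.720 (0.560 to 0.932), Klra7 at 0.825 (0.689 to 0.991) and Klra8 at 0.685 (0.495 to 0.956) had intervals under 1. With stricter gates the summed ratio was 0.967 (0.851 to 1.10), and relative to the median gene it was 0.909 (0.810 to 1.02), so the interval then held 1.

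Ly49 RNA in CD8 T cells lay mostly in cells with RNA of Ccl5, a chemokine gene of memory cells: cells with under 2 Ccl5 UMIs held 35 of 181 Ly49 UMIs in young, 8 of 404 in aged and 8 of 1045 in aged+AA blood. These low-Ccl5 cells made up 84.7% of the gate in young, 39.9% in aged and 44.9% in aged+AA blood, and 1.93%, 0.993% and 0.756% of them held a Ly49 UMI. Cells with at least 2 Ccl5 UMIs and no UMI of the effector genes Gzmk, Klrg1 or Cx3cr1 made up 13.9%, 39.0% and 45.7%. In that class 23.5% (18.3 to 29.3%) of young, 39.3% (33.7 to 45.2%) of aged and 38.7% (35.6 to 41.9%) of aged+AA cells held a Ly49 UMI, at median depths of 7834, 6840 and 7742 UMIs. After thinning to 1000 UMIs the shares were 8.50% (5.34 to 12.7%), 12.2% (8.70 to 16.5%) and 9.81% (7.98 to 11.9%), and these intervals overlapped. These shares come from 1 draw of the thinning. The mean over all possible draws was 6.03%, 12.41% and 10.21%, so the printed draw was above the mean in young cells. The summed level of this class was 67.4, 158 and 124 CPM. The third class, with an effector gene, held 1.41%, 21.1% and 9.41% of CD8 T cells, and its summed level was 63.4, 109 and 108 CPM, resting on 25 young cells with 11 Ly49 UMIs.

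The sizes of the classes differed between young and aged CD8 T cells, and so did the level within the Ccl5 class without effector genes. Within that class the aged-over-young ratio was 2.34 (1.91 to 2.89), and in the class under 2 Ccl5 UMIs it was 1.09 (0.437 to 2.39). Had young cells been split over the classes as aged cells were, with their own share in each class, 13.3% would have held a Ly49 UMI, against 5.13% seen. Aged cells split as the young ones would have given 6.57%, against 19.4% seen.

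Klra7, Klra9 and Klra6 each kept 1 order between the Ccl5 classes in both aged libraries, and other members did not all do so. Klra7 was at 75.5 CPM in aged cells without and 22.3 CPM in aged cells with an effector gene, and at 56.4 and 9.75 CPM in the aged+AA library, while young cells held 28.9 and 28.8 CPM. Klra9 had the opposite order, with 5.46 and 32.1 CPM in the aged and 7.46 and 46.96 CPM in the aged+AA library. Klra8 changed order, with 23.4 and 8.36 CPM in the aged and 11.9 and 27.5 CPM in the aged+AA library. So did Klra3, with 32.8 and 36.2 CPM in the aged and 24.1 and 19.5 CPM in the aged+AA library. Klra6 was at 15.6 CPM in aged+AA cells without an effector gene (115 UMIs) and at 0.886 CPM in those with one (1 UMI). The gap was smaller in the other libraries, with 14.4 and 9.76 CPM in aged cells (29 and 7 UMIs) and 10.98 and 5.76 CPM in young cells (22 and 1 UMIs).

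**Figure D4:**
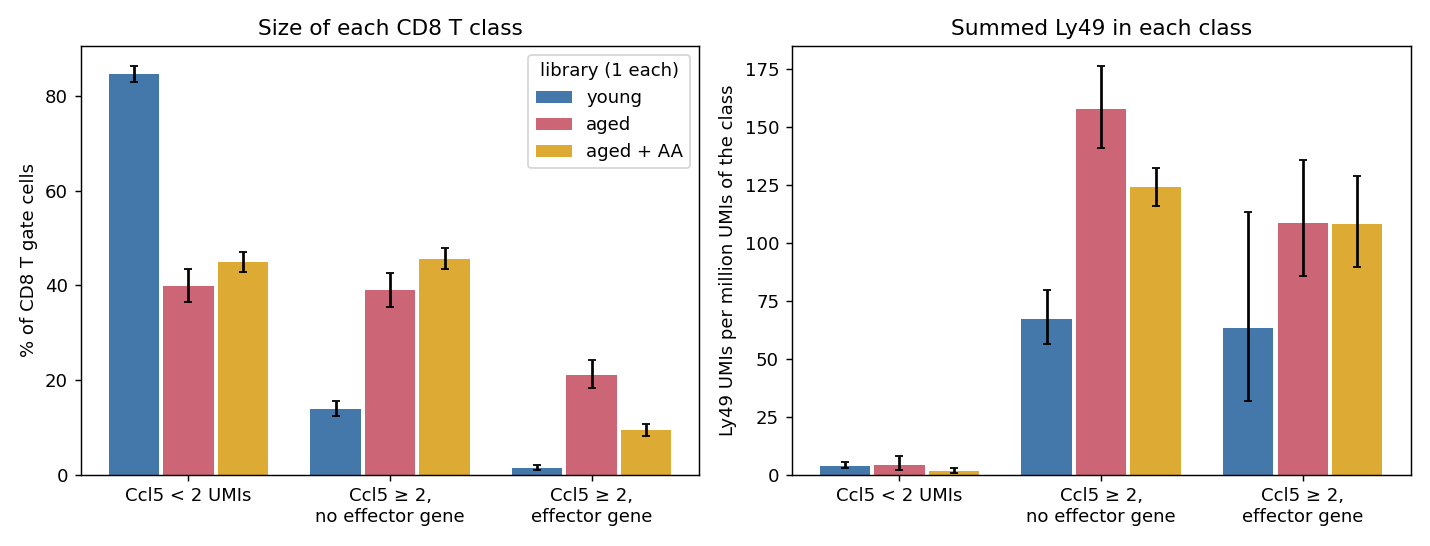
CD8 T cells split by Ccl5 UMIs and the effector genes Gzmk, Klrg1 and Cx3cr1, with the share of the gate in each class in percent (left) and the summed Ly49 level in CPM within the class (right), for the 3 libraries with 95% counting intervals. Classes with Ccl5 held 63.4 to 158 CPM of Ly49, and the class under 2 Ccl5 UMIs held 1.40 to 4.14 CPM.

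Fewer CD8 T cells than NK cells showed several members. Among CD8 T cells with any Ly49 UMI, before thinning, 18.7% (17 of 91) of young, 33.3% (49 of 147) of aged and 28.0% (115 of 411) of aged+AA cells showed 2 or more. Klra6 and Klra7 were found together in 9, 19 and 40 CD8 T cells, the most of any pair, against 0.429, 3.53 and 8.32 from the product of their shares. Most pairs seen in CD8 T cells were above the product, such as Klra7 with Klra8 in aged cells (10 against 2.48). Most cells of the gate held no Ly49 UMI. After thinning, Klra6 and Klra7 met in 1, 0 and 1 cells, too few to compare as was done for NK cells. Cells differ in depth and class, and the part of either in these counts was not tested.

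CD8 T cells with a Ly49 UMI were set against those without in the same library, leaving the members themselves out. Cells with a Ly49 UMI were deeper, with medians of 7761 against 5941 UMIs in young, 6679 against 5696 in aged and 7981 against 6356 in aged+AA cells. Ranked by the interval bound nearest to 1 over the 3 libraries, the 8 highest genes in them were Klre1, Gzmm, Ctla2b, Ctla2a, Lrrk1, Samd3, Yes1 and Fcgr2b. Klre1 was at 95.7 CPM against 3.55 CPM in young, 234 against 36.3 CPM in aged and 119 against 26.9 CPM in aged+AA cells. Gzmm, which encodes granzyme M, was higher 7.45, 3.80 and 2.98 times. The lowest were Ifngr2, Igfbp4, Ccr9, Ramp1, Dapl1, St8sia1, Rgcc and Itgae. Igfbp4, a gene of naive T cells, was at 53.5 CPM against 196 CPM in young, 7.21 against 203 CPM in aged and 12.6 against 154 CPM in aged+AA cells.

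Of 12 CD8 memory genes, 12 were higher in young cells with Ly49, 12 in aged and 11 in aged+AA ones, with median ratios of 3.11, 1.94 and 1.95, beside medians over all genes of 1.003, 1.04 and 1.012. Id2 in the aged+AA library was the exception, at 0.963 (0.874 to 1.06). Eomes was at 45.05 against 10.9 CPM in young, 137 against 58.2 CPM in aged and 91.99 against 39.8 CPM in aged+AA cells. Il2rb, which encodes CD122, was higher 2.79, 2.08 and 1.97 times. Of 9 naive genes, 0, 3 and 2 were higher. Over all genes 50.7%, 56.2% and 52.1% were higher. Ikzf2, which encodes the factor Helios of regulatory CD8 T cells, was higher in Ly49 cells of the young library at 1.93 (1.27 to 2.83) and of the aged+AA library at 1.94 (1.51 to 2.48), and lower in those of the aged library at 0.392 (0.208 to 0.680). The 8 NK marker genes were higher in the CD8 T cells with Ly49 for 8 of 8 genes in each library, with median ratios of 3.27, 1.83 and 2.20. Klrb1c, an NK receptor gene, had 4, 10 and 26 UMIs in these cells and ratios of 4.63 (1.10 to 14.99), 3.46 (1.32 to 8.97) and 5.32 (2.75 to 10.6). Ncr1 was at 0 by the gate and says nothing here. The erythroid genes measured, 8 in the young and 7 in each aged library, had median ratios of 0.0357, 0.440 and 0.693. The part of NK and red cell RNA in these comparisons was not tested.

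NK cells without any Ly49 UMI numbered 12 in young, 39 in aged and 11 in aged+AA blood, at median depths of 2988, 3363 and 3371 UMIs, close to those of the other NK cells. Il7r, a receptor gene of immature NK cells and other innate lymphoid cells, was at 606 CPM in them against 24.5 CPM in young cells with Ly49. It was at 146 against 25.2 CPM in aged and at 301 against 17.9 CPM in aged+AA cells. The values without Ly49 rested on 21, 23 and 10 Il7r UMIs. The NK maturation list as a whole was mixed: 3, 6 and 6 of 10 genes measured were higher in cells with Ly49. Over all genes 51.28%, 41.75% and 49.62% were higher. Eomes was at 38.1 CPM in aged NK cells without and 199 CPM in those with Ly49, while in young cells it was at 289 and 276 CPM. The aged+AA values were 90.3 and 221 CPM, with 3 UMIs in the cells without, and the interval of their ratio, 0.817 to 12.01, held 1. The 7 erythroid genes measured had median ratios of 25.1, 10.9 and 33.9 in favour of the NK cells with Ly49, beside 1.02, 0.931 and 0.993 over all genes, and their part in the comparison was not tested.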

How the data were processed

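The authors deposited raw UMI counts for each gene in each barcode. The libraries used the 10x 3' kit, per the labels' protocols, and Cell Ranger 4 wrote the matrices, per the file headers. mm10 and Seurat 3.1.0 are listed in the submitters' processing notes. The filters behind the authors' own analysis are not given in the sources used here. Barcodes were called as cells by depth or, from 500 UMIs, by an RNA profile unlike that of empty droplets (false discovery rate 0.01), and kept with at least 250 genes, at most 10% mitochondrial UMIs and no doublet call by Scrublet in scanpy 1.11.5, which removed 4.15%, 4.11% and 4.01% of cells. Free RNA was read from barcodes ranked 45001 to 90000 by depth, and its share in a gate was estimated from haemoglobin. Counts were summed per gate and library and scaled to 1000000 UMIs of the gate (CPM). Levels have exact Poisson, shares exact binomial and ratios exact conditional binomial 95% intervals. Genes needed 20 UMIs over both gates for a ratio, and a fold of 1.5 either way was counted. The constant-region genes of the gamma chain, used to gate a further T-cell class, were read under the names in the files.

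The members, the gene lists and the gates were chosen with earlier results of these data known. Named genes were all members, some of the other Klra genes, list members with the values a group turned on, and the 8 most like the summed level. Also named were the 8 highest and 8 lowest in CD8 T cells with Ly49, by the interval bound nearest to 1 over the 3 libraries. Ratios were tested on simulated counts with 200 changed genes: for NK cells, aged over young (7037 genes), a simulated fold of 2 was estimated at a median of 2.08 and a fold of 0.5 at 0.473. For CD8 T cells (10324 genes) the medians were 1.94 and 0.505.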

Additional observations from a re-analysis of the deposited data

Results flagged for a closer look

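A first flag was set where the intervals of a ratio in NK and CD8 T cells lay on opposite sides of 1. Aged over young, this held for the summed Ly49 level and 3 members. The ratio of the sum was 0.580 in NK and 5.45 in CD8 T cells. For Klra3 the values were 0.639 and 7.02, for Klra8 0.596 and 8.19, and for Klra9 0.504 and 12.2. The young CD8 T level of Klra8 lay under that of young B cells. For aged+AA over aged, the intervals lay on opposite sides of 1 for the sum and Klra3. The sum was at 1.49 in NK and 0.849 in CD8 T cells, and Klra3 at 1.30 and 0.720. With 1 library per group, the difference between the cell types was not tested, and both comparisons share the aged library.

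Cells that met no gate held a summed Ly49 level of 47.7 CPM in the young, 71.9 CPM in the aged and 89.5 CPM in the aged+AA library, above the B-cell levels of 8.60, 5.33 and 2.51 CPM. Of the Ly49 UMIs of these cells, 72.1%, 62.0% and 43.4% lay in the cluster that carried the NK markers, and 22.4%, 30.1% and 46.9% in the clusters that carried the CD8 T markers.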

How the results depend on the processing

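No paired analysis was possible because the labels give no replicate numbers and each group is 1 library. Of 44 alternative values of the 4 summed ratios, all 44 stayed on the same side of 1, and 37 lay within the interval of the reported value. With each cell weighted equally the ratios were 0.640 and 1.38 in NK cells and 6.69 and 0.753 in CD8 T cells, aged over young first. For CD8 T cells, aged over young was 4.53 relative to the median gene and 3.11 in clusters in place of gates, and aged+AA over aged was 0.967 under stricter gates. Not thinned, the shares of cells with Ly49 were 96.0%, 83.2% and 93.3% in young, aged and aged+AA NK cells and 5.13%, 19.4% and 19.9% in CD8 T cells. In clusters the CD8 T shares were 2.71%, 9.11% and 7.99%. The young CD8 T share was 0.936% with doublets kept and 0.833% at 5% mitochondrial UMIs, where both the cells kept and the thinning draw differ. Of 54 alternative shares 11 lay outside the reported interval. The mean over all draws, chosen after seeing the data, lay within every reported interval. The cause of these moves was not tested. Of 279 alternative values for single members, 273 stayed within the interval and 275 on the same side of 1. The exceptions in side were, for aged+AA over aged, Klra8 in NK cells with 1 stray CD3 UMI allowed and Klra4 and Klra9 in CD8 T clusters, and, for aged over young, Klra1 in CD8 T clusters. At 5% mitochondrial UMIs Klra1 gave no value for aged over young in CD8 T cells, since the young gate then held 0 UMIs of it. Depth limits Klra6 in NK and Klra1 and Klra4 in CD8 T cells.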

Other observations

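Other T-cell gates also held Ly49 RNA. The NKT-like gate (CD3 with Klrb1c, no Cd8b1, Cd4 or Ncr1) held 42, 61 and 89 cells in the young, aged and aged+AA libraries, with summed levels of 949, 458 and 465 CPM. Klra7 led there as in CD8 T cells, with 38.05%, 33.8% and 50.9% of the Ly49 UMIs, and Klra4 with Klra8 gave 14.6%, 21.7% and 3.88%. T cells with gamma-delta receptor genes held 79.3, 224 and 137 CPM in 108, 51 and 111 cells. CD4 T cells held 6.94 CPM (4.91 to 9.53), 12.6 CPM (8.74 to 17.6) and 11.3 CPM (8.10 to 15.3). The young value is at the B-cell background of 8.60 CPM and is not read as expression, and B cells of the aged and aged+AA libraries held 5.33 and 2.51 CPM.

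Of the 4 other Klra genes listed in the files, Klra5 stood apart in aged NK cells, with 49 UMIs in 13 cells against 10 UMIs in 4 young cells and 2 UMIs in 2 aged+AA cells. Klra10, the close copy of Klra3 and Klra9, had 7, 8 and 3 UMIs in NK cells, and Klra17 had 0 in each library.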
